A study of Mus musculus with 6 samples.

Results

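The histone genes of the mouse were taken as every gene whose symbol begins with Hist1h to Hist4h, H2af, H3f3 or H1f, together with Hils1, leaving out H2afx and entries marked as pseudogenes by the ending -ps. This name rule gave 87 of the 54532 genes in each library, and used no measured value. They comprise 64 replication-dependent genes, 9 replacement variants, 9 testis or oocyte forms and 5 entries that GENCODE M21 annotates as pseudogene or antisense RNA (H2afy3, H3f3c, Hist1h2al, Hist1h2aj and H3f3aos). Of the 87, 57 lie on chromosome 13 and 11 on chromosome 3, where the main histone clusters are. The remaining members lie on chromosomes 1, 2, 6, 10, 11, 15 and X.

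RNA was sequenced from testis cells labelled as pachytene spermatocytes, which STA-PUT sedimentation had separated by size from mice of about postnatal day 80. The 3 groups were WT, MAPS KO (KO, the gene deleted, MAPS-/-) and MAPS EE;MAPS-/- (EE_KO, described as overexpressing MAPS on the KO background), with 2 libraries each. The design asks how loss of the MAPS protein alters silencing of the sex chromosomes in meiosis. Each group drew on 3 mice of identical genotype and the sequencing on 2 independent experiments, but the labels do not say which mice entered which library, what EE stands for, or which promoter drives the added MAPS. The p-values therefore measure only the spread between these samples, which may be technical. Levels are FPKM, fragments scaled by transcript length and library size. Levels of different genes can be set side by side only as far as the library kit captured their mRNAs alike, which was not tested. Differences are log2 of FPKM + 1 from limma with their standard error (SE), and a call required an adjusted p (Benjamini-Hochberg, over the 15366 genes with a mean of at least 1 FPKM) below 0.05.

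The libraries held 14178387 to 16565238 reads on genes as recovered from the FPKM, and 1 read over 500 bases stood for 0.111 to 0.143 FPKM. The MAPS gene, 1700102P08Rik, stood at 150.2 to 157 FPKM in WT, 7.97 to 10.1 in KO and 82.2 to 108.6 in EE_KO. The KO libraries stood apart, with a Pearson correlation over tested genes of 0.295 to 0.394 with every other library, against 0.980 to 0.989 between all remaining pairs and within KO. The labelled cell type was checked against 12 pachytene markers, of which 11 were lower in KO than in WT, with summed levels of 6780 and 6208 FPKM in WT, 275 and 331 in KO and 5885 and 6330 in EE_KO. The markers differed unequally: Sycp1, of the synaptonemal complex, was not called (45.6 ± 3.31 FPKM in WT and 39.9 ± 2.76 in KO, SD, n = 2, adjusted p = 0.21), and Sycp3 of the same complex was lower by a modest amount (73.4 ± 0.863 and 48.6 ± 8.88, adjusted p = 0.0033). All 10 spermatid markers were lower in KO (summed 1656 and 3440 in WT, 19.0 and 19.2 in KO, 2153 and 3190 in EE_KO). All 10 Sertoli cell markers (243 and 239 in WT, 3534 and 3276 in KO, 401 and 215 in EE_KO) and all 8 Leydig cell markers (58 and 109 in WT, 2234 and 2142 in KO, 177 and 84.3 in EE_KO) were higher in KO. So were 8 of 9 tested spermatogonial markers (38.9 and 40.3 in WT, 220 and 260 in KO, 43.4 and 37.8 in EE_KO), all 4 tested macrophage and leukocyte markers (2.62 and 3.95, 29.8 and 22.4, 4.46 and 4.32) and all 3 tested peritubular, endothelial and blood markers (3.42 and 3.02, 27.3 and 24.5, 6.64 and 3.59). No marker was at 0 in every library. In these bulk samples fewer cells of a type and less RNA per cell cannot be told apart, and the part of these markers in the histone differences below was not tested.

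Histones package DNA into nucleosomes, with core histones H2A, H2B, H3 and H4 forming the particle and linker histone H1 binding between particles. Replication-dependent histone genes are read in S phase, and their mRNAs usually end in a short stem-loop in place of a poly(A) tail, whereas replacement variants are made outside S phase from ordinary polyadenylated mRNAs. Male germ cells add forms of their own during meiosis and in spermatids, before transition proteins and protamines replace most histones.

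Transcripts of the 6 tested testis forms were lower in KO than in WT, those of Hils1 and H1fnt by the most. Of the replacement variants 4 were higher in KO and 3 lower. Of the 12 tested replication-dependent genes 3 were higher, with Hist1h1c and Hist1h2bc rising most, and 6 were lower. No member was called between EE_KO and WT. Of the 87 members, 30 had a mean of at least 1 FPKM and were tested: 12 replication-dependent genes, 9 replacement variants, 6 testis forms and 3 of the pseudogene entries. A member can pass that filter through 1 group alone, so these counts describe only those that passed. In KO against WT, 7 of the 30 were higher, against 38% of all genes tested, and 16 were lower, against 48.2% of all genes tested. With quantile normalization the split among the 30 was 10 higher and 13 lower, against 43.4% and 41.7% of all genes tested, and with TPM 9 and 14, against 44.4% and 41.7%. The median difference was -0.91 for the 30 and -0.29 for all tested genes. In EE_KO against WT limma called none of the 30 in either direction (all genes: 0.026% higher and 0.0195% lower), 4 had an unadjusted p under 0.05 (Hist1h2al, Hist1h2aa, H2afz and H1fx), and voom on the recovered reads also called 0. The differences ran from -0.69 to 1.38 and the smallest adjusted p was 0.31. In EE_KO against KO, 17 were higher, against 47.8% of all genes tested, and 7 were lower, against 37.8% of all genes tested. That comparison shares the KO libraries with the first, so its values are given beside those of KO against WT and not as separate support.

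**Figure D1:**
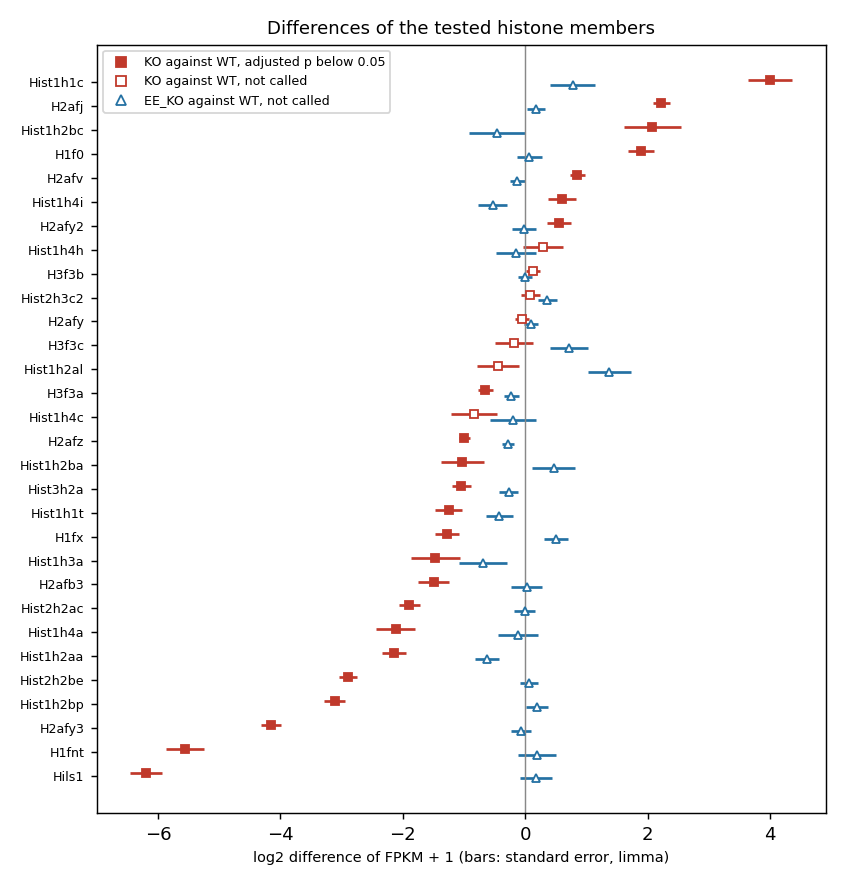
Log2 differences of FPKM + 1 (x axis, bars are limma's standard error) for the 30 tested members (y axis, ordered by KO against WT), with red squares for KO against WT (filled where called) and blue triangles for EE_KO against WT, n = 2 libraries per group. The red points run from -6.20 (Hils1) to 4.0 (Hist1h1c), and the blue points lie between -0.69 and 1.38.

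The makeup of the histone transcripts differed accordingly. Testis and oocyte forms together stood at 152.7 and 267 FPKM in WT, 4.31 and 4.65 in KO, and 213.5 and 240.0 in EE_KO. They made up 22.0 and 30.7% of the members' summed FPKM in WT, 0.856 and 0.911% in KO, and 27.4 and 30.2% in EE_KO. Replacement variants held most of the sum in every library, at 441 and 492 FPKM in WT, 392.2 and 403 in KO, and 451 and 446 in EE_KO. Replication-dependent genes, although 64 in number, reached 71.4 and 87.2 FPKM in WT, 105.4 and 96.5 in KO, and 85.7 and 76.9 in EE_KO. How the library kit captured mRNAs without a poly(A) tail was not tested, so the sums of the classes may differ in capture as well as in level. For the last class the KO libraries were the highest, which rested on Hist1h1c. Without it the other 63 genes summed to 69.2 and 84.6 FPKM in WT, 42.4 and 50.3 in KO, and 77.5 and 74.1 in EE_KO. KO was then the lowest, an order that in turn leaned on Hist2h2be and Hist1h2bp. Hist2h2be read 23.2 and 19.5 FPKM in WT and 2.27 and 1.76 in KO, and Hist1h2bp 15.8 and 21.3 and 1.02 and 1.47. Other genes of the 63, such as Hist1h2bc, were higher in KO, so the sum does not describe the class as a whole. For the testis forms the KO libraries lay far below all others.

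All 6 tested testis forms were lower in KO than in WT (48.2% of all tested genes were), and all 6 were higher in EE_KO than in KO (47.8% of all tested genes were). Of these calls that of Hist1h2ba in KO against WT was lost in 6 alternatives. Hils1 (ENSMUSG00000038994), the spermatid linker histone, was the most abundant of them. Its level was 86.9 and 156.6 FPKM in WT, 0.837 and 0.400 in KO, and 125.8 and 140.0 in EE_KO. The KO libraries, with 13 and 6 reads, were far below every WT library (1051 and 2048 reads), a difference of -6.20 (SE 0.26, adjusted p = 3.18e-07), while EE_KO differed from WT by 0.18 (SE 0.26, adjusted p = 0.93). Hils1 lies on chromosome 11 (GRCm38 94967593 to 94968456, plus strand) and overlaps Sgca on the opposite strand, which read 22.4 and 17.7 FPKM in WT, 0.385 and 0.697 in KO, and 17.0 and 16.4 in EE_KO. Read strand being not given in the sources used here, reads of the pair cannot be told apart where they overlap.

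H1fnt (ENSMUSG00000048077), the linker histone H1T2 of round spermatids, had the same order of groups. It read 46.0 and 97.3 FPKM in WT, 0.596 and 0.308 in KO, and 67.9 and 86.9 in EE_KO. The difference of KO from WT was -5.56 (SE 0.31, adjusted p = 1.37e-06) and that of EE_KO from KO 5.75 (SE 0.31, adjusted p = 1.28e-06). The second WT library was the higher of the pair for both Hils1 and H1fnt, as it was for the summed spermatid markers. Whether these are linked was not tested. The ratio of Hils1 to H1fnt was 1.89 and 1.61 in WT, 1.41 and 1.30 in KO, and 1.85 and 1.61 in EE_KO. The KO ratios were the lowest, without overlap, but rest on 13 and 6 reads of Hils1 and 14 and 7 of H1fnt. Transcripts of both genes share no 50-base word with another gene on the same strand.

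The linker histone of spermatocytes, Hist1h1t (ENSMUSG00000036211), was far lower than these spermatid forms in WT and EE_KO, while all 3 were under 1 FPKM in KO. Its level was 2.51 and 2.03 FPKM in WT, 0.366 and 0.379 in KO, and 2.02 and 0.952 in EE_KO. KO was below every other library, a difference of -1.25 from WT (SE 0.22, adjusted p = 8.38e-04), and EE_KO differed from KO by 0.82 (SE 0.22, adjusted p = 0.0081), or 0.25 (adjusted p = 0.36) with quantile normalization and 0.51 (adjusted p = 0.042) without EE_KO replicate 1. EE_KO differed from WT by -0.42 (SE 0.22, adjusted p = 0.74), with both its libraries below the WT libraries. These levels rest on 6 to 32 reads per library. Of the 3 linker histones only Hist1h1t holds the stem-loop of replication-dependent mRNAs in its annotated transcripts, and how the kit captured such mRNAs was not tested. The genes whose centred log2 levels over the 6 libraries came closest to Hist1h1t were Cpt1b, at a root mean square difference of 0.112, and Ldlrad2, Ccdc12, Adcy6 and Ak5, each at 0.134.

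Hist1h2aa (TH2A) and Hist1h2ba (TH2B), the testis forms of H2A and H2B, are divergent neighbours on chromosome 13. Hist1h2aa read 4.76 and 3.39 FPKM in WT, 0.285 and 0 in KO, and 2.28 and 2.23 in EE_KO. Its KO libraries held 2 and 0 reads against 26 and 20 in WT, a difference of -2.15 (SE 0.20, adjusted p = 1.60e-05). EE_KO lay between the groups, 1.52 above KO (SE 0.20, adjusted p = 1.31e-04) and -0.63 from WT (SE 0.20, adjusted p = 0.45). Hist1h2ba stood at 6.32 and 3.10 FPKM in WT, 1.45 and 1.95 in KO, and 9.43 and 4.52 in EE_KO. Its difference of KO from WT, -1.03 (SE 0.35, adjusted p = 0.025), was not called with TPM (-0.87, adjusted p = 0.096), with quantile normalization (-0.81, adjusted p = 0.071), without a filter (adjusted p = 0.087) or without WT replicate 1 (-0.61, adjusted p = 0.18), KO replicate 1 (-0.89, adjusted p = 0.13) or KO replicate 2 (-1.16, adjusted p = 0.062). EE_KO was 1.5 above KO (SE 0.35, adjusted p = 0.0042). Of the 50-base words of Hist1h2ba, 38.2% also occur in Hist1h2br, so some of its reads may have been assigned between copies, whereas Hist1h2aa shares 2.3%.

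The H2afb genes encode a short H2A variant of the H2A.B family and lie on the X chromosome. H2afb3 read 4.93 and 3.61 FPKM in WT, 0.480 and 1.32 in KO, and 5.10 and 3.65 in EE_KO. KO lay below every other library, a difference of -1.49 (SE 0.26, adjusted p = 7.08e-04), and EE_KO was 1.52 above KO (SE 0.26, adjusted p = 6.48e-04). H2afb3 rests on 24 and 19 reads in WT, 3 and 8 in KO, and 26 and 19 in EE_KO. Of its words 46.8% occur in other genes, 43.8% in H2afb1, so some reads may have been assigned between copies. H2afb1 was too low to be tested, at 1.23 and 0.949 FPKM in WT, 0.160 and 0 in KO, and 0.785 and 1.73 in EE_KO, and 43.8% of its words occur in H2afb3. H2afb2 was listed at 0 in every library. H1foo, the oocyte linker histone, stayed at or below 0.288 FPKM throughout, at 0.0595 and 0.110 in WT, 0.139 and 0.288 in KO, and 0.114 and 0 in EE_KO.

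**Figure D2:**
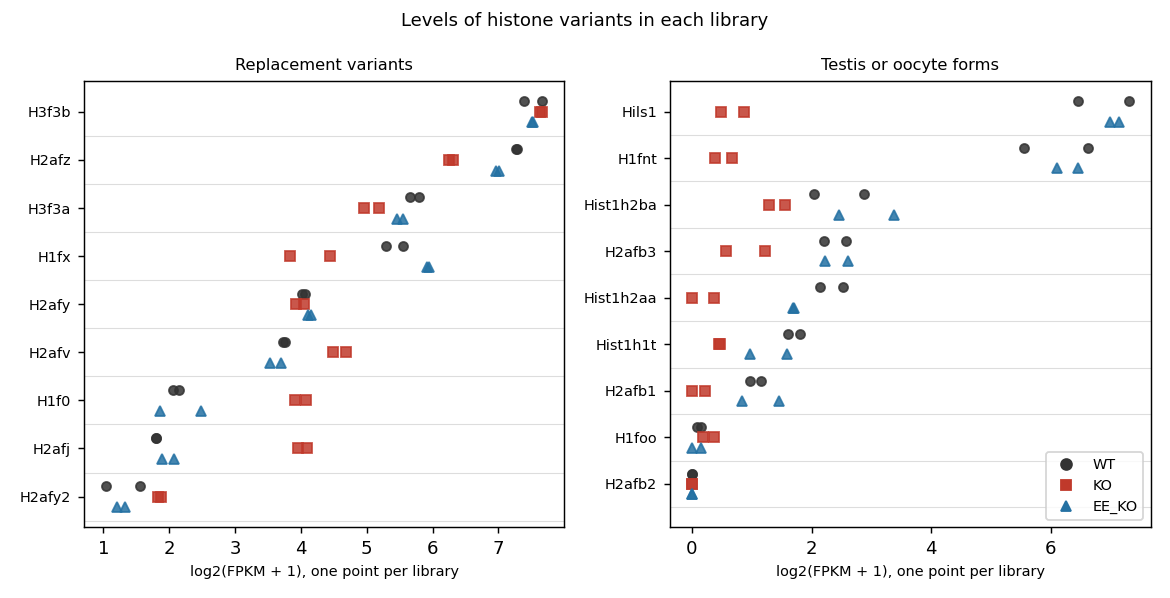
Level as log2(FPKM + 1) (x axis) of each replacement variant (left) and each testis or oocyte form (right), 1 point per library, with circles for WT, squares for KO and triangles for EE_KO. KO squares lie left of all other points for H2afz, H3f3a and H1fx and for the 6 tested testis forms, and right of them for H2afv, H1f0, H2afj and H2afy2.

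Promoter windows of 300 bases, 250 before the gene start and 50 after it, were found in RefSeq (GRCm38.p6) for 78 of the 87 members. The 250 bases before the start are shown for Hils1 and Hist1h1t, which were lower in KO, for Hist1h2ba, which faces Hist1h2aa, and for Hist1h1c, a linker histone that was higher in KO. Capitals mark the CCAAT box, the TATA box with the letters TATAAA, and the octamer with the letters ATTTGCAT, each on either strand, and TGACGTCA (the cyclic AMP response element, CRE) was also searched.
Hils1 (chr11:94967343-94967592, plus strand): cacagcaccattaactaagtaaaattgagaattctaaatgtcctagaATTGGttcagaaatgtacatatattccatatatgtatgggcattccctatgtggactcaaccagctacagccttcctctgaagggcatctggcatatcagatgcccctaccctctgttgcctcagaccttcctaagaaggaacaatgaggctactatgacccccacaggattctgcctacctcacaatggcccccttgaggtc
Hist1h1t (chr13:23695561-23695810, plus strand): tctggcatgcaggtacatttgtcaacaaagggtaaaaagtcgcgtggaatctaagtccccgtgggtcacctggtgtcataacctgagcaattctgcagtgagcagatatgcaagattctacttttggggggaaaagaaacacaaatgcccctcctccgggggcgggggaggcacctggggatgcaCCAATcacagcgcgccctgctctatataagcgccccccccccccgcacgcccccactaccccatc
Hist1h2ba (chr13:23934157-23934406, minus strand): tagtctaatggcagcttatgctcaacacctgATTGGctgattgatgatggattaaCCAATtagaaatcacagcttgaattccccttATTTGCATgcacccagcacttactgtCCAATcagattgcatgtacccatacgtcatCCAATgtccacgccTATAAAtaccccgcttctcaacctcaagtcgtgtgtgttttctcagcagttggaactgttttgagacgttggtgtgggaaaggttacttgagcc
Hist1h1c (chr13:23738557-23738806, plus strand): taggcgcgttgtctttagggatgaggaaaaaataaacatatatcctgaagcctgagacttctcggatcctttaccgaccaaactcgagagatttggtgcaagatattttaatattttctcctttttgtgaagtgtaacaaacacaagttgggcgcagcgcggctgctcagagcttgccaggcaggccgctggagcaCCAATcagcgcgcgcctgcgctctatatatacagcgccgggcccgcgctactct
Hist1h1t and Hist1h1c, although opposite in direction, each hold 1 CCAAT, whose first base is at -65 and -54 from the start, and the window of Hils1 holds 1 at -203. Hist1h2ba has 4 CCAAT, 1 octamer and 1 TATAAA, and its window overlaps that of Hist1h2aa by 220 bases (chr13:23934187-23934406), so the pair share most of these letters. H1fnt has none of the motifs in its window.

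CCAAT occurred in a window of 84.7% of 59 replication-dependent genes, 88.9% of 9 testis or oocyte genes and 66.7% of 9 replacement genes. Of all 32851 windows 37.4% held it. Members were counted by gene, as holding a motif if any of their windows did, whereas the 32851 were counted by window. TATAAA occurred for 55.9% of the replication-dependent, 22.2% of the testis or oocyte and 11.1% of the replacement genes, against 13.6% of all windows. The octamer, long known from H2B promoters, was found for 43.8% of 16 H2B genes and 20.3% of replication-dependent ones, against 1.7% of all windows. The CRE was found for 6.8% of the replication-dependent genes and for none of the testis or replacement ones, against 1.8% of all windows. All 16 H2B genes had CCAAT. These are matches of letters, and the data hold no measurement of binding there.

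Among the 9 replacement variants 4 were higher in KO than in WT (H2afj, H1f0, H2afv and H2afy2), 3 were lower (H1fx, H2afz and H3f3a) and 2 were not called, where 38% of all tested genes were higher and 48.2% lower. Linker histones went in opposite directions. H1f0 (ENSMUSG00000096210), the H1 of differentiated and resting cells, read 3.16 and 3.44 FPKM in WT, 15.95 and 14.1 in KO, and 4.59 and 2.63 in EE_KO, so that KO was 1.89 above WT (SE 0.21, adjusted p = 4.85e-05). H1fx (ENSMUSG00000044927) read 38.2 and 46.0 FPKM in WT, 13.2 and 20.8 in KO, and 60.8 and 59.1 in EE_KO. KO lay below all others for H1fx (-1.29, SE 0.20, adjusted p = 3.66e-04), and both EE_KO libraries lay above WT, a difference of 0.51 that was not called (SE 0.20, adjusted p = 0.61).

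The H2A.Z pair also parted. H2afz (ENSMUSG00000037894), which encodes H2A.Z.1, read 153 and 154 FPKM in WT, 75.2 and 78.2 in KO, and 124 and 128 in EE_KO, a difference of -0.99 between KO and WT (SE 0.10, adjusted p = 2.19e-05). This difference was -0.14 with quantile normalization (adjusted p = 0.25), and that of EE_KO from KO turned from 0.71 (SE 0.10, adjusted p = 1.70e-04) to -0.05. H2afv (ENSMUSG00000041126), which encodes H2A.Z.2, read 12.2 and 12.5 FPKM in WT, 21.5 and 24.8 in KO, and 12.0 and 10.5 in EE_KO, a difference of 0.85 in KO (SE 0.12, adjusted p = 2.84e-04). Within a library, which needs no scaling between libraries, the ratio of H2afz to H2afv was 12.6 and 12.3 in WT, 3.49 and 3.15 in KO, and 10.3 and 12.2 in EE_KO. KO was the lowest of the groups in this ratio, without overlap.

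H2afj (ENSMUSG00000060032), which encodes H2A.J, read 2.5 and 2.49 FPKM in WT, 14.6 and 16.2 in KO, and 3.21 and 2.70 in EE_KO. Its KO mean was 15.4 ± 1.11 FPKM against 2.49 ± 0.00498 in WT (SD, n = 2), 6.17-fold higher, with a difference of 2.23 (SE 0.14, adjusted p = 2.37e-06) and of -2.05 in EE_KO against KO (SE 0.14, adjusted p = 3.94e-06). The macroH2A genes, whose products carry a large extra domain and are found on the silenced sex chromosomes of spermatocytes, differed less. H2afy (macroH2A1) read 15.1 and 15.8 FPKM in WT, 15.5 and 14.2 in KO, and 16.9 and 16.2 in EE_KO, and its difference in KO, -0.05 (SE 0.11, adjusted p = 0.67), became 0.38 with TPM (adjusted p = 0.014) and 0.31 with quantile normalization (adjusted p = 0.021). H2afy2 (macroH2A2) read 1.05 and 1.94 FPKM in WT, 2.69 and 2.54 in KO, and 1.51 and 1.32 in EE_KO, a difference of 0.56 (SE 0.20, adjusted p = 0.028) that was 0.29 without WT replicate 1 (adjusted p = 0.15) and was also not called without either KO library or without a filter.

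H3f3b and H3f3a encode the same H3.3 protein from separate genes. H3f3b (ENSMUSG00000016559) had the highest mean of all members, reading 166 and 201 FPKM in WT, 198 and 202 in KO, and 181 and 183 in EE_KO. WT overlapped both other groups, and the difference of 0.13 between KO and WT (SE 0.12, adjusted p = 0.33) was called on other scales, at 0.57 with TPM (adjusted p = 0.0063) and 0.93 with quantile normalization (adjusted p = 0.00059). EE_KO lay below KO without overlap, a difference of -0.14 (SE 0.12, adjusted p = 0.31) that was called with TPM (-0.54, adjusted p = 0.0083) and with quantile normalization (-0.84, adjusted p = 0.00099). H3f3a (ENSMUSG00000060743) read 49.6 and 54.5 FPKM in WT, 35.6 and 30.2 in KO, and 45.9 and 42.8 in EE_KO, a difference of -0.65 (SE 0.12, adjusted p = 0.0011) that was -0.23 with TPM (adjusted p = 0.11) and -0.02 with quantile normalization (adjusted p = 0.86). The ratio of H3f3b to H3f3a, free of that scaling, was 3.35 and 3.69 in WT, 5.56 and 6.71 in KO, and 3.95 and 4.27 in EE_KO, highest in KO and without overlap. H3f3a overlaps the antisense entry H3f3aos, which stayed below 1 FPKM in each library.

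Most replication-dependent genes were barely detected. Of the 64, 7 were listed at 0 in every library, 45 were under 1 FPKM in every library including those 7, and 12 reached the mean of 1 FPKM. Near-identical copies share long stretches, and a read that fits several genes may be dropped or split between them. Of 19 genes with at least 75% of their 50-base words in other genes, none reached a mean of 1 FPKM and 5 were listed at 0. Among 29 genes sharing from 25 to under 75%, 9 reached it, as did 3 of 16 genes sharing less than 25%. A level near 0 for a highly shared copy is therefore uncertain.

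**Figure D3:**
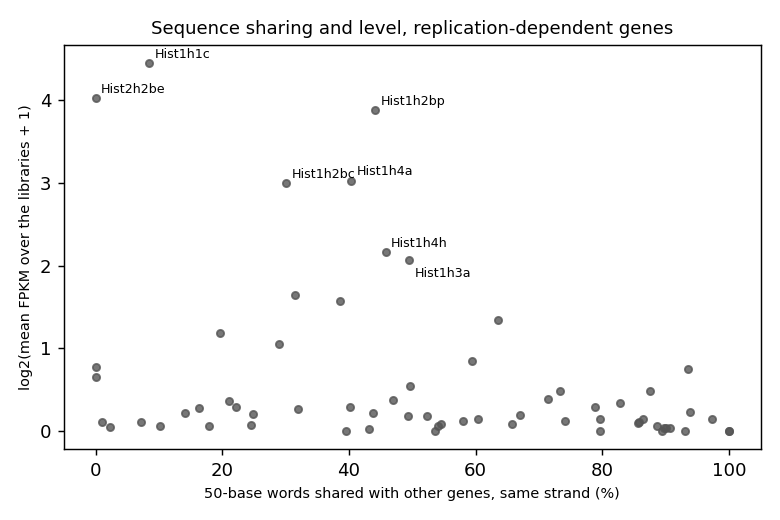
Mean level over the 6 libraries as log2(FPKM + 1) (y axis) against the percentage of 50-base words a gene shares with other genes on the same strand (x axis), 1 point per replication-dependent gene, n = 64, with genes of at least 2.5 FPKM named. No gene at 75% or more shared reaches a mean of 1 FPKM (1 on the y axis), and the highest points are Hist1h1c and Hist2h2be, both under 25%.

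The stem-loop that ends replication-dependent mRNAs was searched for in GENCODE M21 transcripts as a hairpin of 6 paired bases that begins with GG, around a loop of 4 bases that begins with TT. It was found in 43 of the 64 replication-dependent genes (67.2%) and in 1 of 9 testis or oocyte forms (Hist1h1t). None of the 9 replacement variants held it, and 0.32% of 21951 protein-coding genes did. Median annotated length was 411 bases for the 21 replication-dependent genes without it. With it, the median was 483 bases for the 22 with under 100 bases after it and 1261 for the others. Hist1h2aa and Hist1h2ba are annotated at 390 and 384 bases. A stem-loop beyond the annotated end could not be found, so such genes may still have it. The stem-loops of 2 linker histones and of 3 core histone genes, chosen among the members described here, are shown to compare the families, with the stem and loop in capitals.
Hist1h1t: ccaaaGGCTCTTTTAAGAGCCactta
Hist1h1c: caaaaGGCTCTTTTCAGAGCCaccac
Hist1h2bp: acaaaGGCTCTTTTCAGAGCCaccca
Hist2h2ac: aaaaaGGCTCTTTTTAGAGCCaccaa
Hist1h4h: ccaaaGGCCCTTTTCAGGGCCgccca
Annotated transcripts ran on for 840 bases after the stem-loop in Hist1h1c and for 38 bases in Hist1h2bp. The median of the genes' mean levels was 0.165 FPKM for the 21 genes whose transcripts run on 100 or more bases after the stem-loop, 0.126 for the 22 with fewer bases after it and 0.133 for the 21 in which it was not found. The libraries came from a SMARTer mRNA-seq kit, and how the kit's priming or selection acted on mRNAs without a poly(A) tail was not tested.

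Of the 12 tested replication-dependent genes, 3 were higher in KO than in WT, 6 were lower and 3 were not called, beside 38% higher and 48.2% lower among all tested genes. Only 2 of the 6 libraries in the filtering mean are KO, so a gene high in KO alone passed less easily. The split of the 12 is therefore not that of the class: of the 52 left out, 20 had both KO libraries above WT and 3 below. Hist1h1c (ENSMUSG00000036181), the linker histone H1.2, had the largest rise. It read 2.24 and 2.63 FPKM in WT, 63.0 and 46.2 in KO, and 8.14 and 2.78 in EE_KO, with KO means 22.4-fold above WT (difference 4.0, SE 0.37, adjusted p = 1.63e-05). EE_KO differed from KO by -3.22 (SE 0.37, adjusted p = 6.09e-05) and from WT by 0.78 (SE 0.37, adjusted p = 0.70). Hist1h2bc read 2.72 and 3.14 FPKM in WT, 14.4 and 16.8 in KO, and 4.14 and 0.578 in EE_KO, a difference of 2.08 (SE 0.46, adjusted p = 0.0030), and EE_KO differed from KO by -2.54 (SE 0.46, adjusted p = 9.84e-04), or by -1.69 without EE_KO replicate 2. For both genes the first EE_KO library was the higher of its pair, as it was for the Sertoli and Leydig marker sums. A pair of libraries allows only 2 orders, and a link between these levels was not tested.

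The third rise was small. Hist1h4i read 0.491 and 1.45 FPKM in WT, 1.91 and 1.90 in KO, and 0.282 and 0.368 in EE_KO, and its difference of 0.60 (SE 0.23, adjusted p = 0.039) was 0.24 without WT replicate 1 (adjusted p = 0.20), 0.96 without WT replicate 2, and was not called in 5 other settings either. For Hist1h4i, EE_KO differed from KO by -1.14 (SE 0.23, adjusted p = 0.0020).

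Among the falls were those of 2 H2B genes. Hist1h2bp (ENSMUSG00000069308) read 15.8 and 21.3 FPKM in WT, 1.02 and 1.47 in KO, and 19.9 and 22.5 in EE_KO, with KO 14.9-fold below WT (difference -3.11, SE 0.18, adjusted p = 1.43e-06). Hist2h2be (ENSMUSG00000068854) read 23.2 and 19.5 FPKM in WT, 2.27 and 1.76 in KO, and 21.2 and 23.4 in EE_KO (difference -2.89, SE 0.15, adjusted p = 7.93e-07). Its transcripts share no 50-base word with another gene, whereas 44.1% of the words of Hist1h2bp are shared. Within the H2B family, then, Hist1h2bc was higher in KO while these 2 were lower, and no KO library overlapped WT for any of the 3.

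Hist2h2ac, an H2A gene that neighbours Hist2h2be on chromosome 3, read 3.16 and 2.67 FPKM in WT, 0.107 and 0 in KO, and 2.5 and 3.34 in EE_KO. Its KO libraries held 1 and 0 reads against 23 and 21 in WT (difference -1.89, SE 0.17, adjusted p = 1.57e-05). Hist1h4a read 6.76 and 14.6 FPKM in WT, 1.96 and 1.17 in KO, and 10.4 and 8.06 in EE_KO (difference -2.12, SE 0.32, adjusted p = 3.37e-04). Its neighbour Hist1h3a read 3.48 and 7.18 FPKM in WT, 0.834 and 1.62 in KO, and 4.35 and 1.63 in EE_KO. The difference of -1.47 for Hist1h3a (SE 0.39, adjusted p = 0.0082) was not called without WT replicate 2 (-1.03, adjusted p = 0.067) or without KO replicate 1 (-1.21, adjusted p = 0.069), and that of EE_KO from KO, 0.78, was not called (SE 0.39, adjusted p = 0.098).

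Hist3h2a read 3.30 and 2.83 FPKM in WT, 1.09 and 0.858 in KO, and 2.45 and 2.27 in EE_KO (difference -1.04, SE 0.15, adjusted p = 2.86e-04). It overlaps Trim17, with which it shares 31.5% of its words and which read 17.7 and 26.8 FPKM in WT and 0.328 and 0.416 in KO. Hist1h4h (2.74 and 3.65 FPKM in WT, 2.72 and 6.0 in KO, 2.03 and 3.70 in EE_KO) was not called in any comparison, nor was Hist2h3c2, which stayed between 1.10 and 2.01 FPKM. The 12th gene, Hist1h4c, read 2.09 and 1.37 FPKM in WT, 1.02 and 0.140 in KO, and 2.33 and 0.652 in EE_KO (difference -0.83, SE 0.38, adjusted p = 0.067). It was called in 6 alternatives, among them voom on the recovered reads (-2.00, adjusted p = 0.039) and the model without KO replicate 1 (-1.25, adjusted p = 0.033).

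**Figure D4:**
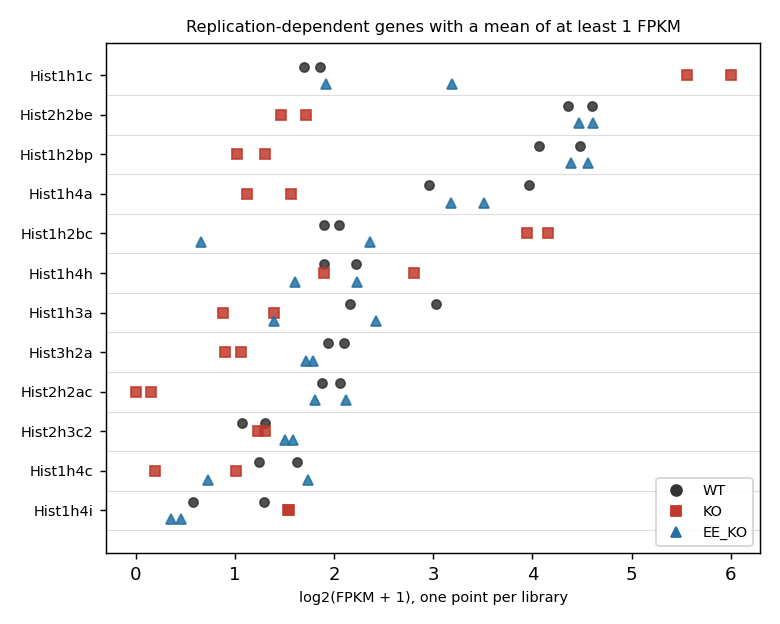
Level as log2(FPKM + 1) (x axis) of the 12 tested replication-dependent genes (y axis), 1 point per library, with circles for WT, squares for KO and triangles for EE_KO. KO squares lie right of the rest for Hist1h1c, Hist1h2bc and Hist1h4i, and left of them for Hist2h2be, Hist1h2bp, Hist1h4a, Hist3h2a and Hist2h2ac. For Hist1h3a they also lie left, but barely, the higher KO value being 1.62 FPKM and the lowest other value 1.63.

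The 52 untested replication-dependent genes summed to 4.0 and 5.79 FPKM in WT (34 and 56 reads), 13.5 and 17.2 in KO (230 and 259 reads), and 5.89 and 5.74 in EE_KO (74 and 64 reads). In 20 of them both KO libraries were above both WT libraries and in 3 both were below, with no value above 1.86 FPKM. These are 38.5 and 5.77% of the 52, against 14.9 and 13.8% of all 38625 genes with a mean under 1 FPKM. Among the 21476 of those genes above 0 in some library the shares were 26.8 and 24.8%, but the 52 include 7 at 0 throughout. By a different measure, limma called 38% of all tested genes higher and 48.2% lower. Without the filter on low levels, 15 of 79 members were called higher and 17 lower in KO against WT, against 25.8% and 27.6% of all genes. Among them Hist1h1a read 0.193 and 0.535 FPKM in WT and 1.5 and 1.63 in KO, and Hist1h3e read 0.0854 and 0.0790 in WT and 0.932 and 1.10 in KO. The S phase genes listed beside them were mixed: of 18 tested, 9 were higher in KO and 8 lower, with a median difference of 0.13.

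The makeup of the H1 family differed between the groups. Hils1 and H1fnt held 48.5 and 25.7% of its summed FPKM in the first WT library and 50.7 and 31.5% in the second. In KO they held 0.863 and 0.614% of it in the first library and 0.462 and 0.356% in the second. Hist1h1c held 64.9 and 53.3% in the KO libraries, against 1.25 and 0.85% in WT and 3.01 and 0.951% in EE_KO. The share of H1fx, at 21.3 and 14.9% in WT and 13.6 and 24.0% in KO, overlapped between these groups. The family summed to 179 and 309 FPKM in WT, 97.1 and 86.5 in KO, and 270.2 and 292.6 in EE_KO.

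**Figure D5:**
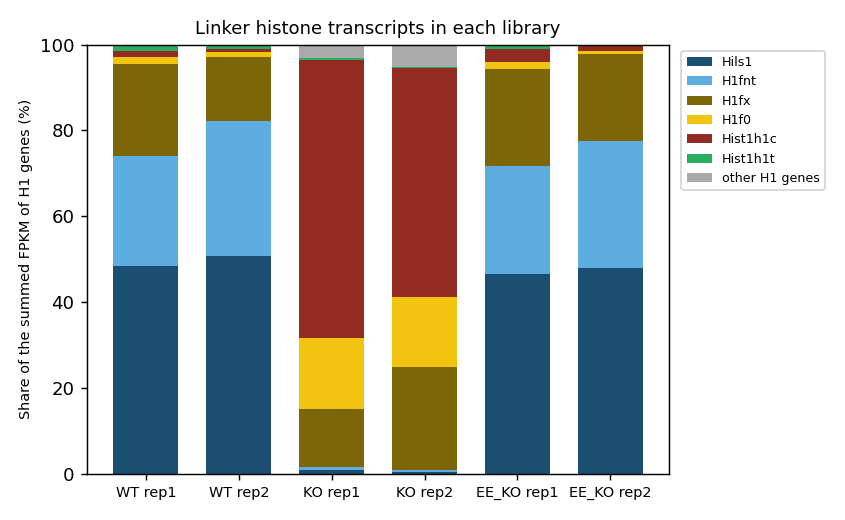
Share of the summed FPKM of all H1 genes (y axis, percent) held by each gene in each library (x axis, rep is the replicate number), as stacked bars. Hils1 and H1fnt fill most of the WT and EE_KO bars, and Hist1h1c fills 64.9 and 53.3% of the KO bars.

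Among the pseudogene entries H2afy3, annotated as a processed pseudogene on chromosome 15, read 25.9 and 19.1 FPKM in WT, 0.25 and 0.362 in KO, and 20.5 and 21.9 in EE_KO. KO differed from WT by -4.15 (SE 0.17, adjusted p = 2.52e-07) and EE_KO from KO by 4.09 (SE 0.17, adjusted p = 2.87e-07). In WT its per-length level exceeded those of both macroH2A genes, H2afy and H2afy2. Of its words 13.4% also occur in H2afy2, and it overlaps Pvt1, which read 0.756 and 0.595 FPKM in WT. H3f3c read 3.30 and 2.73 FPKM in WT, 1.49 and 4.06 in KO, and 6.31 and 4.88 in EE_KO, and shares 73.8% of its words with other genes, mostly H3f3a. It was called in EE_KO against KO (0.89, SE 0.31, adjusted p = 0.027), a call lost with TPM (0.70, adjusted p = 0.17), with quantile normalization, without a filter and without KO replicate 1 (0.37, adjusted p = 0.17) or EE_KO replicate 1. It was 1.40 without KO replicate 2. Hist1h2al held 0 and 6 reads in WT, 0 and 1 in KO, and 11 and 18 in EE_KO, a difference of 1.82 between EE_KO and KO (SE 0.35, adjusted p = 0.0013) and of 1.38 between EE_KO and WT (SE 0.35, adjusted p = 0.31). H3f3aos and Hist1h2aj stayed under 1 FPKM.

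Genes that act on histones were described from 3 lists. Of 16 tested genes for making histone mRNA and processing its end, 6 were higher and 7 lower in KO than in WT (median -0.25), and of all tested genes 38% were higher and 48.2% lower (median -0.29). Slbp, whose protein binds the stem-loop, had a mean of 25.02 ± 1.37 FPKM in WT and 10.04 ± 1.27 in KO (SD, n = 2), a difference of -1.24 (SE 0.12, adjusted p = 2.59e-05). Lsm11, of the U7 particle that helps cut histone mRNA, went the other way, with 0.560 ± 0.0535 FPKM in WT and 3.58 ± 0.169 in KO (difference 1.55, SE 0.16, adjusted p = 3.52e-05). Papolb, the testis poly(A) polymerase, read 173.5 ± 17.6 FPKM in WT and 5.10 ± 0.178 in KO (difference -4.83, SE 0.12, adjusted p = 5.72e-08).

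Of 28 tested histone chaperones and exchange factors, 10 were higher and 13 lower (median -0.17), shares near those of all tested genes. Nasp, a carrier of H3, H4 and linker histones, read 239 ± 22.2 FPKM in WT and 18.3 ± 4.20 in KO (difference -3.65, SE 0.16, adjusted p = 3.81e-07). Anp32e, which removes H2A.Z, read 2.43 ± 0.0427 FPKM in WT and 32.8 ± 1.27 in KO (difference 3.30, SE 0.24, adjusted p = 4.45e-06), and Atrx, which with Daxx deposits H3.3, read 0.581 ± 0.0371 and 7.58 ± 0.155 (difference 2.44, SE 0.16, adjusted p = 3.00e-06). Daxx itself was lower, at 65.9 ± 1.08 FPKM in WT and 45.6 ± 0.977 in KO (difference -0.52, SE 0.10, adjusted p = 0.00101).

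The list for histone removal in spermatids leaned to lower levels in KO, with 12 of 18 lower and a median of -2.58. Its members Prm1, Prm2, Tnp1 and Tnp2 are also in the spermatid marker list. Brdt, a bromodomain reader of acetylated histones in spermatids, read 81.7 ± 4.95 FPKM in WT and 11.3 ± 0.652 in KO (difference -2.75, SE 0.11, adjusted p = 2.74e-07), and Chd5, a remodeller of spermatid chromatin, read 22.2 ± 8.23 and 0.981 ± 0.320 (difference -3.51, SE 0.24, adjusted p = 3.46e-06). In EE_KO against WT none of the tested genes of the 3 lists or of the S phase list was called.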

How the data were processed

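RNA-seq libraries of 3 groups, 2 each, were deposited by the authors as FPKM per Ensembl gene, per the file headers. GRCm38 and mm10 are named in the submitters' processing notes. Not given in the sources used here are the aligner, the read counter, the gene annotation and the read strand. Symbols, types, positions and transcripts came from GENCODE M21, which matched 54495 of 54532 genes, and promoters from RefSeq. FPKM times exon length gave whole reads for 96.83 to 97.04% of values above 0 (tolerance 0.01). Genes with a mean of at least 1 FPKM (15366, without 535 short RNAs and 6 repeated symbols) entered 1 limma 3.58.1 model (R 4.3.3) of log2(FPKM + 1) over all 6 libraries, with a mean-variance trend and no block, adjusted after Benjamini-Hochberg. The added 1 FPKM understates changes of low genes. Scaling matters: the median difference of all tested genes in KO against WT was -0.29 as deposited, 0.09 with TPM and 0.03 with quantile normalization, and in EE_KO against KO 0.26, -0.08 and -0.05. Alternatives were TPM, quantile normalization, a replicate block, no trend, no filter or a minimum of 5 FPKM, pseudocounts of 0.1 and 0.5, models of the 2 compared groups only, voom on recovered reads and each library left out. The script was tested on simulated data. Named are all variants and testis forms, the 8 highest replication-dependent genes and up to 5 called rises and falls of them per comparison, and the 5 genes most alike to Hist1h1t; genes of the other lists, Hist1h1a and Hist1h3e, and the remaining tested members were chosen after their values were seen. H2afy3 and H3f3c were set apart from the variants by their annotation as pseudogenes. The members and lists were chosen with earlier results of these data known. Cpsf3l and Ars2 of the lists were not matched to the files' symbols. A result for 1 gene of the lists is not reported here.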

Additional observations from a re-analysis of the deposited data

How the results depend on the processing

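Of the members called as deposited, 17 of 23 (KO against WT) and 19 of 24 (EE_KO against KO) were called under every alternative in which they were tested. Members with a mean under 5 FPKM were not tested in the alternative with that minimum. Without a filter 15 members were higher in KO against WT and 17 lower in EE_KO against KO, since 79 were then tested. Of all 35423 genes tested without a filter, 9127 and 8936 were so called. With at least 5 FPKM, 9 were lower in KO against WT and 9 higher in EE_KO against KO, since 16 were then tested. Of all 8765 genes tested at that minimum, 4770 and 4725 were so called. Leaving out each library gave 5 to 7 higher and 15 to 17 lower for KO against WT, 15 to 19 higher and 6 to 7 lower for EE_KO against KO, and 0 for EE_KO against WT. The replicate block gave 7 higher and 17 lower for KO against WT (all genes: 5824 and 7402 of 15366). It gave 18 higher and 7 lower for EE_KO against KO (all genes: 7316 and 5787) and 0 for EE_KO against WT (all genes: 2 and 0). Hist1h4c (KO against WT, -0.83, limma adjusted p = 0.00384) was gained, as in 5 other alternatives. The labels do not say whether numbers pair the libraries, and deviations of same-numbered libraries correlated at -0.03, 0.05 and 0.09. The sign turned for some differences, of which H2afz and H3f3a in EE_KO against KO had been called. In EE_KO against KO, H2afy became -0.25 with TPM and -0.20 with quantile normalization, which also gave H2afz -0.05, H3f3a -0.13 and Hist2h3c2 -0.04, and without 1 KO library Hist1h4h ran from -0.89 to 0.02. In KO against WT, H3f3c became 0.154 with TPM and 0.008 with quantile normalization, and H2afy 0.38 and 0.31. With each library left out in that comparison, H3f3c ran from -0.69 to 0.34, Hist1h2al from -1.0 to 0.11, H2afy from -0.11 to 0.006, H3f3b from -0.006 to 0.27, Hist1h4h from -0.16 to 0.75 and Hist2h3c2 from -0.034 to 0.20. Apart from the scalings, the cause of these turns was not tested. Where 1 library of a group was left out, the lone one is assumed to vary like the other groups. At this depth genes of a few reads, most of the replication-dependent ones, allow no firm order.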
